A study of Mus musculus with 6 samples.

Results

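The mature neutrophil granule genes examined here were 10 genes chosen by name, S100a8, S100a9, Ngp, Camp, Ltf, Lcn2, Lyz2, Mmp8, Mmp9 and Retnlg, out of 55487 genes in the count table. All 10 were found by symbol. They were measured in bulk RNA of megakaryocyte-erythroid progenitors, the shared precursors of red cells and platelets, sorted from marrow to ask how a short fast acts on red cell production. There were 3 control libraries and 3 libraries from mice fasted for 6 h, all from wild-type C57BL/6 mice aged 8 weeks. The labels give neither the sex of the mice nor the gate of the sort, and they do not say whether a library came from a single mouse or a pool, so p-values measure the spread between these libraries only.

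Neutrophils are built in the bone marrow, and their granules are filled in stages. Proteins of the primary granules, such as myeloperoxidase and neutrophil elastase, are made first, in promyelocytes. Proteins of the secondary and tertiary granules, such as lactoferrin, cathelicidin and gelatinase, are made later, in myelocytes and metamyelocytes, under C/EBP family transcription factors. Their transcripts are among the most abundant of maturing neutrophils and are not characteristic of erythroid or megakaryocytic cells. In bulk RNA, fewer cells of a type and less RNA per cell cannot be told apart.

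By function, S100a8 and S100a9 encode the subunits of calprotectin, a calcium- and zinc-binding protein of the neutrophil cytosol. They lie 22.6 kb apart on chromosome 3 (S100a8 90668978 to 90670035, plus strand, S100a9 90692632 to 90695721, minus strand, GRCm38 in GENCODE M21). Ngp (chromosome 9, 110419747 to 110423012, plus strand) and Camp (chromosome 9, 109847379 to 109849617, minus strand) encode related proteins with a cathelin-like domain, and Camp is the precursor of the antimicrobial peptide cathelicidin. Ltf (chromosome 9, 111019271 to 111042767, plus strand) encodes the iron-binding lactoferrin and follows Ngp at 596.3 kb. Lcn2 (chromosome 2, 32384633 to 32388252, minus strand) encodes a lipocalin that binds bacterial iron carriers. Lyz2 (chromosome 10, 117277331 to 117282321, minus strand) encodes a lysozyme that monocytes and macrophages also make. Mmp8 (chromosome 9, 7558456 to 7568485, plus strand) and Mmp9 (chromosome 2, 164940780 to 164955850, plus strand) encode a collagenase and a gelatinase of the granules. Retnlg (chromosome 16, 48872621 to 48874496, plus strand) encodes a resistin-like secreted protein. No other gene model of M21 overlapped any of the 10, so no overlapping model shares their reads in that annotation.

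Promoter sequence was available in the RefSeq tables of GRCm38.p6 for 9 of the 10 genes. The search covered the window from 250 bases before to 50 bases after each start, on both strands. A C/EBP-type motif, TTGCNNAA, was present in 6 of 9 members (Lcn2, Ltf, Mmp8, Ngp, Retnlg and S100a9) and in 10.8% of all 32817 windows, in which a gene can have several starts. The core GAGGAA of sites bound by PU.1 and other ETS factors was present in 4 of 9 (Lcn2, Ltf, Mmp8 and S100a8) and in 28.3% of all windows. A TATA-type motif, TATAAA, was present in 3 of 9 (Mmp8, S100a8 and S100a9) and in 13.6% of all windows. In S100a8 it stood at position -30 from the RefSeq start, which lies downstream of the M21 start and so outside the stretch printed here. In Mmp8 it stood on the other strand at position -3, and in S100a9 at position 1, from the RefSeq start. These are matches of letters, with no measure of binding, and no match overlapped another. No link between motifs and the course of a gene over the libraries was tested. Camp, with the widest control range, had no match, and Mmp8 and Retnlg, which shared the course of Lyz2, had a C/EBP-type match. The stretches below are those of 4 members with large differences between control libraries and of Lyz2, which followed another course, as given in the next paragraphs. Each is written 5′ to 3′ in the direction of the gene, ends before the earlier of the RefSeq and M21 starts, and has the matches to the C/EBP-type and GAGGAA motifs in capitals on whichever strand they fall.
S100a8 (chr3:90668821-90668977, plus strand): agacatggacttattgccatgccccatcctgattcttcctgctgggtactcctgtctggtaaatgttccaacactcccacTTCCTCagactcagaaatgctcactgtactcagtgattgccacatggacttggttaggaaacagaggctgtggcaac
S100a9 (chr3:90695722-90695971, minus strand): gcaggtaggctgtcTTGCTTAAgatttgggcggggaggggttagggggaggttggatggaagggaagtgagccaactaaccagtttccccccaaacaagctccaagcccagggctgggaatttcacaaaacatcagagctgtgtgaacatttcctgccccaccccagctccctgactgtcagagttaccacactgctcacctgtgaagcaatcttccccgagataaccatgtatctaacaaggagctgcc
Ngp (chr9:110419558-110419746, plus strand): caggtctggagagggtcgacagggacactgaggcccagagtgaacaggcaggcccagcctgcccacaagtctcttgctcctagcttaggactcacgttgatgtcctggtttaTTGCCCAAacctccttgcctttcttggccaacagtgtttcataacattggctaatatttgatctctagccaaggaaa
Ltf (chr9:111019042-111019270, plus strand): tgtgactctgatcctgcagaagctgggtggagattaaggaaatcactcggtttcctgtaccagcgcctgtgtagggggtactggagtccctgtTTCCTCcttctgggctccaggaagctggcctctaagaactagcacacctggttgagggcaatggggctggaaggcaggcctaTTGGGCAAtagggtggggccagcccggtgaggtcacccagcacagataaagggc
Lyz2 (chr10:117282322-117282522, minus strand): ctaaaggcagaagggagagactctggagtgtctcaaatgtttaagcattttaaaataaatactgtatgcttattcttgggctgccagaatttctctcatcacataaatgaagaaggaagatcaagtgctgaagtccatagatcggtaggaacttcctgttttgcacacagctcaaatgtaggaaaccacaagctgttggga

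The libraries held 12797144 to 30246110 gene counts, and the control group was deeper. Receptor genes of the nose, which blood cells do not express, gave a background of 8.99 to 16.0 counts per kilobase of exon, estimated at 3.90 to 8.59% of the counts in control and 11.5 to 14.6% in fasted libraries. Values below are CPM, counts scaled to a common library size, after TMM scaling, a correction between libraries made over all tested genes. This scaling bears on every fold change: under it the 36508 tested genes had a median log2 fold change of 0.32, against -0.50 over the 10641 tested genes whose mean count was at least 5 times the background, called well-expressed genes here. A second fit, called the restricted fit, scaled and tested only those 10641 genes, which included all 10 members.

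Levels were compared between members as mean CPM per kilobase of transcript over the 6 libraries. S100a8 was highest at 505 CPM per kb, followed by S100a9 (308), Lyz2 (206), Ngp (192) and Camp (146). Ltf (38.8) and Retnlg (31.3) followed, and Lcn2 (9.15), Mmp8 (8.92) and Mmp9 (3.87) were lowest. Of neighbours in this order, S100a8 was above S100a9, Ngp above Camp, Camp above Ltf, Retnlg above Lcn2 and Mmp8 above Mmp9 in 6 of 6 libraries. Lyz2 was above Ngp in 3 of 6, and the mean difference of 13.4 CPM per kb was smaller than the spread within groups of either gene (SD 45.1 and 117). Lcn2 and Mmp8 likewise differed by 0.231 CPM per kb, less than the SDs of 4.30 and 1.96. Mean counts were 218 to 760 times the background for S100a8, S100a9, Lyz2, Ngp and Camp, and 13.6, 13.4 and 5.78 times for Lcn2, Mmp8 and Mmp9. In fasted library 2 the background estimate for Mmp9 was 56.6 of its 119 counts (47.6%).

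Control library 1 held the least of S100a8, S100a9, Ngp, Camp, Ltf and Lcn2, below every fasted library, and control libraries 2 and 3 held the most. The calprotectin subunit gene S100a8 was at 89.7, 568 and 757 CPM in the control libraries, in order, against 168, 244 and 275 CPM in the fasted libraries. The fasted values lay inside the control range, which was 8.44-fold wide against 1.64-fold in the fasted group. S100a9 followed the same order, with 58.8, 269 and 288 CPM in control, against 101.2, 123 and 126 CPM after fasting. The groups overlapped for both subunits because of control library 1 alone.

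The cathelin-like granule gene Ngp was at 74.0, 368 and 451 CPM in control, against 141, 213 and 162 CPM after fasting. The cathelicidin gene Camp was at 21.8, 177 and 218 CPM in control, against 66.5, 95.2 and 87.0 CPM after fasting. Its control range, 10.0-fold from lowest to highest, was the widest of the 10 members. The lactoferrin gene Ltf was at 57.7, 218.5 and 246 CPM in control, against 79.3, 104 and 97.1 CPM after fasting. The lipocalin gene Lcn2 was at 9.39, 36.1 and 37.3 CPM in control, against 18.5, 22.8 and 19.9 CPM after fasting. In each of these 4 genes control library 1 was the lowest of the 6 libraries and control libraries 2 and 3 were the 2 highest.

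Under TMM scaling Lyz2, Mmp8 and Retnlg took another course, with no fasted library above any control library. The lysozyme gene Lyz2 was at 269, 402 and 402 CPM in control, against 205, 202 and 144 CPM after fasting. The resistin-like gene Retnlg was at 15.9, 32.9 and 24.65 CPM in control, against 11.3, 13.4 and 13.03 CPM after fasting. The collagenase gene Mmp8 was at 21.8, 33.4 and 23.5 CPM in control, against 15.4, 20.0 and 15.8 CPM after fasting. For the gelatinase gene Mmp9 the values were 11.1, 20.2 and 18.7 CPM in control, against 11.25, 6.22 and 14.8 CPM after fasting, so fasted library 2 was lowest and the groups overlapped. The groups thus stood apart, lower in fasted libraries, for 3 of 10 members. The same held for 15.1% of all tested genes and for 47.6% of well-expressed genes, so the members' share was below that of well-expressed genes as a whole. With counts divided by library totals instead, 0 of 10 members stood apart, as did 14.7% of well-expressed genes, and control library 1 was then lowest for 8 of 10 members, Mmp8 and Retnlg added, against 6 of 10 under TMM scaling.

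**Figure D1:**
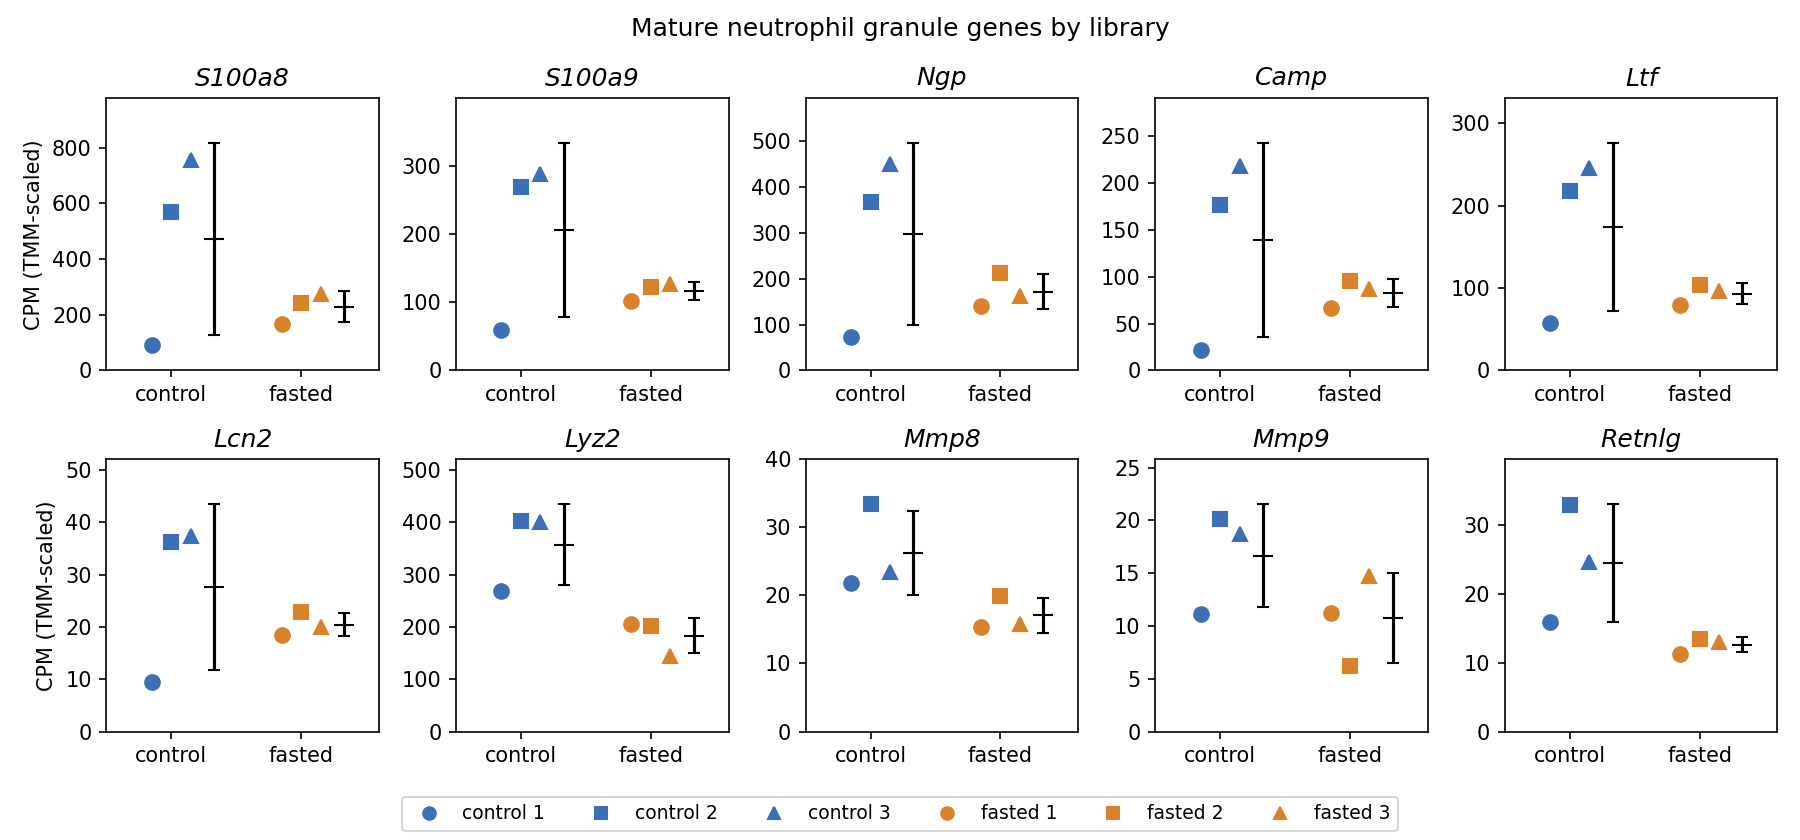
TMM-scaled CPM of each granule gene (y axis, each panel from 0) in the control and fasted libraries, 1 point per library with the mean and SD (n = 3) beside each group. Control library 1 lies below the fasted libraries for S100a8, S100a9, Ngp, Camp, Ltf and Lcn2, whereas Lyz2, Mmp8 and Retnlg are lower in every fasted than in every control library, which does not hold for counts divided by library totals.

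In the comparison of fasted with control libraries, Lyz2 and Retnlg fell and the other 8 members did not pass the test. Lyz2 averaged 358 ± 76.8 CPM in control and 184 ± 34.2 CPM in fasted libraries (SD, n = 3 per group), with a fitted log2 difference of -0.96 (SE 0.24; edgeR adjusted p 0.0370). Retnlg averaged 24.5 ± 8.49 CPM in control and 12.6 ± 1.13 CPM in fasted libraries (SD, n = 3 per group), with a fitted log2 difference of -0.96 (SE 0.28; edgeR adjusted p 0.0479). The 2 calls among 10 members stand against 4.97% of all tested genes called, 3.82% lower and 1.15% higher, and against 12.9% of well-expressed genes called lower. DESeq2 called 6 of 10 lower, adding S100a9, Ltf, Mmp8 and Mmp9, beside 10.6% of the genes it was run on. The DESeq2 share over well-expressed genes alone, which is the closer comparison, was not taken. Among the edgeR calls, 1368 of the 1393 genes called lower were well-expressed genes. Both edgeR calls were lost in the restricted fit, in which 0 of 10641 genes passed (0%, with 2111 at an unadjusted p under 0.05), and there Lyz2 had -0.49 (SE 0.24, edgeR adjusted p 0.287) and Retnlg -0.48 (SE 0.31, edgeR adjusted p 0.414). Both were also lost without control library 2, without fasted library 1 and without fasted library 3, with edgeR adjusted p from 0.110 to 0.206, and Retnlg alone was lost without fasted library 2 (edgeR adjusted p 0.0640).

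The largest fitted difference of the 10, that of S100a8, carried the second largest error. S100a8 averaged 471 ± 344 CPM in control and 229 ± 55.2 CPM in fasted libraries (SD, n = 3 per group), with a fitted log2 difference of -1.04 (SE 0.81; edgeR adjusted p 0.438). S100a9 had -0.82 (SE 0.53), Ngp -0.79 (SE 0.66) and Camp -0.74 (SE 0.87), with edgeR adjusted p of 0.342, 0.458 and 0.596. Ltf had -0.90 (SE 0.44), Lcn2 -0.43 (SE 0.39), Mmp8 -0.62 (SE 0.26) and Mmp9 -0.63 (SE 0.32), with edgeR adjusted p of 0.213, 0.460, 0.123 and 0.188. The median over the 10 members was -0.80, beside 0.32 over all tested genes and -0.50 over well-expressed genes. All 10 estimates were below 0, as were 35.4% over all tested genes and 82.6% over well-expressed genes. In the restricted fit the members' median was -0.38 and that of all genes tested was 0.021. Lcn2 changed sign there, to 0.01 (SE 0.53).

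Without control library 1 the errors of S100a8, S100a9, Ngp, Camp, Ltf and Lcn2 shrank to between 0.22 and 0.24, and 8 of 10 members passed as lower in fasted libraries, against 2.24% of all genes tested in that fit. S100a8 then had a log2 fold change of -1.54 (SE 0.24, edgeR adjusted p 0.000309) and Camp -1.26 (SE 0.22, edgeR adjusted p 0.00132). Mmp8 and Mmp9 were the 2 members that did not pass. The share called lower over well-expressed genes was not taken for this fit. With all 6 libraries it was 12.9%, against 3.82% of all tested genes. Without control library 3 the estimates moved the other way, to -0.54 (SE 0.89) for S100a8, -0.37 (SE 0.73) for Ngp, -0.27 (SE 1.00) for Camp, -0.51 (SE 0.64) for S100a9, -0.58 (SE 0.49) for Ltf and -0.17 (SE 0.44) for Lcn2, none of which passed (edgeR adjusted p 0.429 to 0.866), while Lyz2 and Retnlg still passed. In the restricted fit without control library 1 no member passed at an edgeR adjusted p under 0.05, 8 had an unadjusted p under 0.05, and the smallest edgeR adjusted p was 0.119 (Ltf). In the restricted fit without control library 3, the members' median was 0.0070, with 5 estimates above 0 and 5 below.

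**Figure D2:**
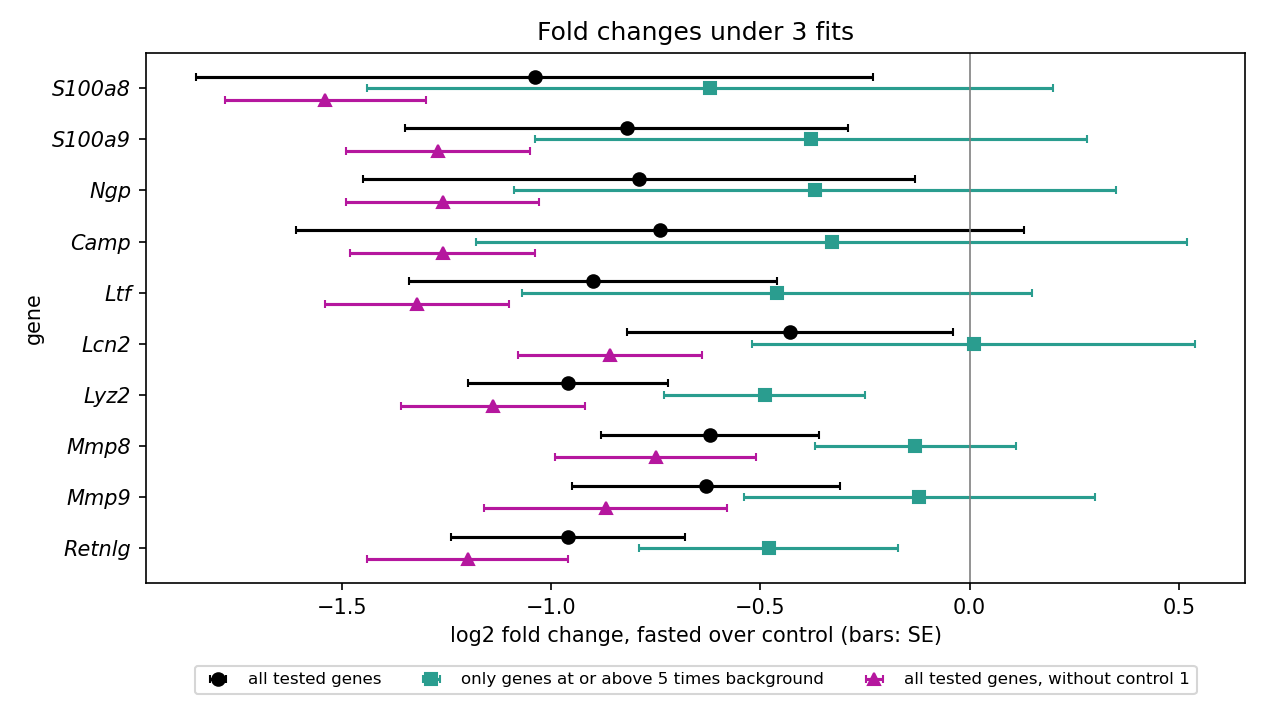
Log2 fold change of each granule gene, fasted over control, with its SE, from the fit of all tested genes, the restricted fit of well-expressed genes, and the fit of all tested genes without control library 1. The restricted fit moves every gene towards 0 (Lcn2 to 0.01), and leaving out control library 1 moves every gene away from it and shortens the bars of S100a8, S100a9, Ngp, Camp, Ltf and Lcn2.

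Division by the library total is another scaling, whose total includes the background given above. By it the 10 members together took 0.0474%, 0.181% and 0.230% of the counts in the control libraries, in order, against 0.0993%, 0.109% and 0.123% in the fasted libraries. The 95% Wilson interval was 0.0466 to 0.0482% in control library 1 and 0.228 to 0.232% in control library 3, and it covers counting error only, since PCR copies are not independent molecules. Here too the fasted libraries lay close together and inside the control range.

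The mix of members in control library 1 held more Lyz2 and less S100a8 and Camp than in any other library. Lyz2 made up 42.8% of the members' counts in control library 1, 18.9% and 16.3% in control libraries 2 and 3, and 25.1%, 19.3% and 15.1% after fasting. S100a8 made up 14.3% in control library 1 and 20.5 to 30.7% elsewhere, and Camp 3.47% against 8.14 to 9.13%. Ltf kept an even share, from 9.17 to 10.3% over the 6 libraries. The S100a8 to S100a9 count ratio was 1.53, 2.11 and 2.63 in control, against 1.66, 1.99 and 2.18 after fasting, and the Camp to Ngp ratio was 0.295 in control library 1 against 0.446 to 0.537 in the other libraries. The Lcn2 to Ltf ratio was 0.163, 0.165 and 0.152 in control, against 0.233, 0.220 and 0.205 after fasting, the only one of these 3 ratios whose groups did not overlap.

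**Figure D3:**
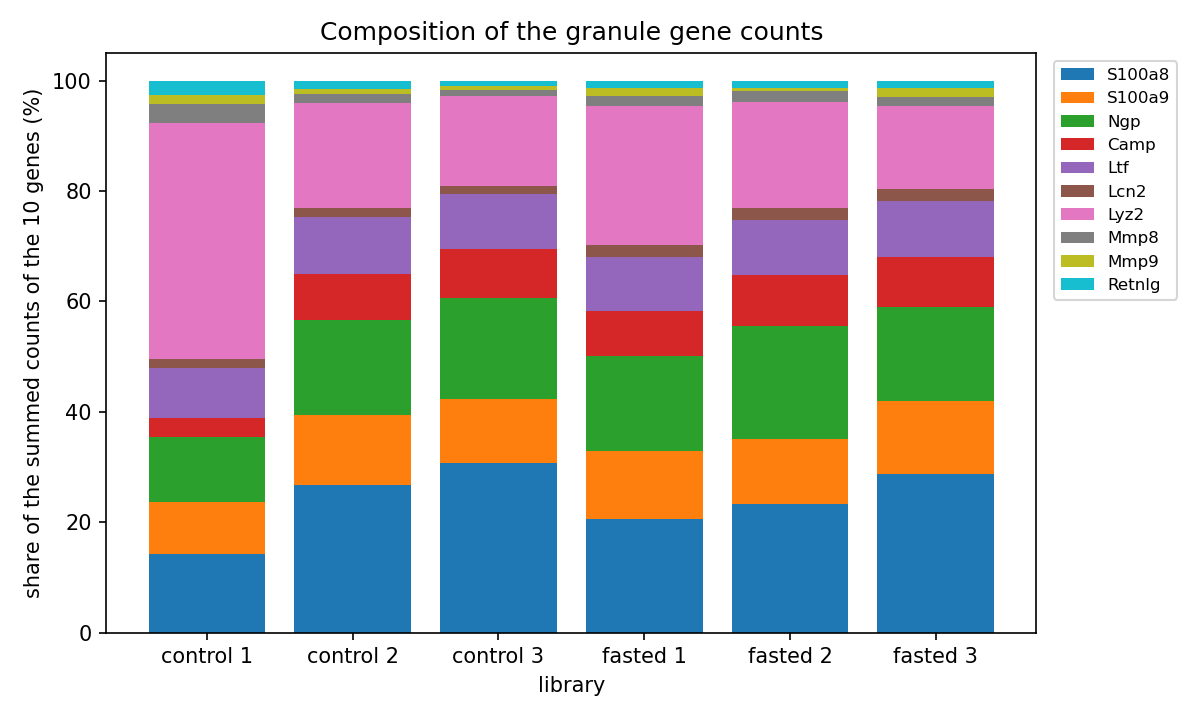
Share of the summed counts of the 10 granule genes (y axis, percent) taken by each gene in each library. Lyz2 takes 42.8% in control library 1 and 15.1 to 25.1% in the other libraries, and Ltf keeps 9.17 to 10.3% throughout.

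To describe the common course, each gene's log2 CPM was centred on its mean over the 6 libraries. The mean over the 10 members was -0.87, 0.85 and 0.88 in the control libraries, in order, against -0.44, -0.20 and -0.22 in the fasted libraries. Ltf lay closest to this mean profile, with a root mean square difference of 0.117 log2 units, and Camp farthest, at 0.527, through its value of -2.01 in control library 1. Among 8220 other named well-expressed genes of at least 5 CPM, for which the median difference was 0.738, the closest was Cd177 (0.197), the gene of a neutrophil surface glycoprotein, which went through 309, 796 and 1021 counts in control, against 315, 430 and 508 after fasting. Other near genes were Hist1h2ao (0.228), Rmi2 (0.237), Stt3b (0.253), Hba-a2 (0.261), Hist1h2ap (0.266) and Rab5if (0.275). Hist1h2ao and Hist1h2ap are replication-dependent histone genes, and Hba-a2, an alpha globin gene, and these histones have near-identical copies whose reads cannot be assigned with certainty. None of these near genes passed the test between groups (edgeR adjusted p 0.128 to 0.460).

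**Figure D4:**
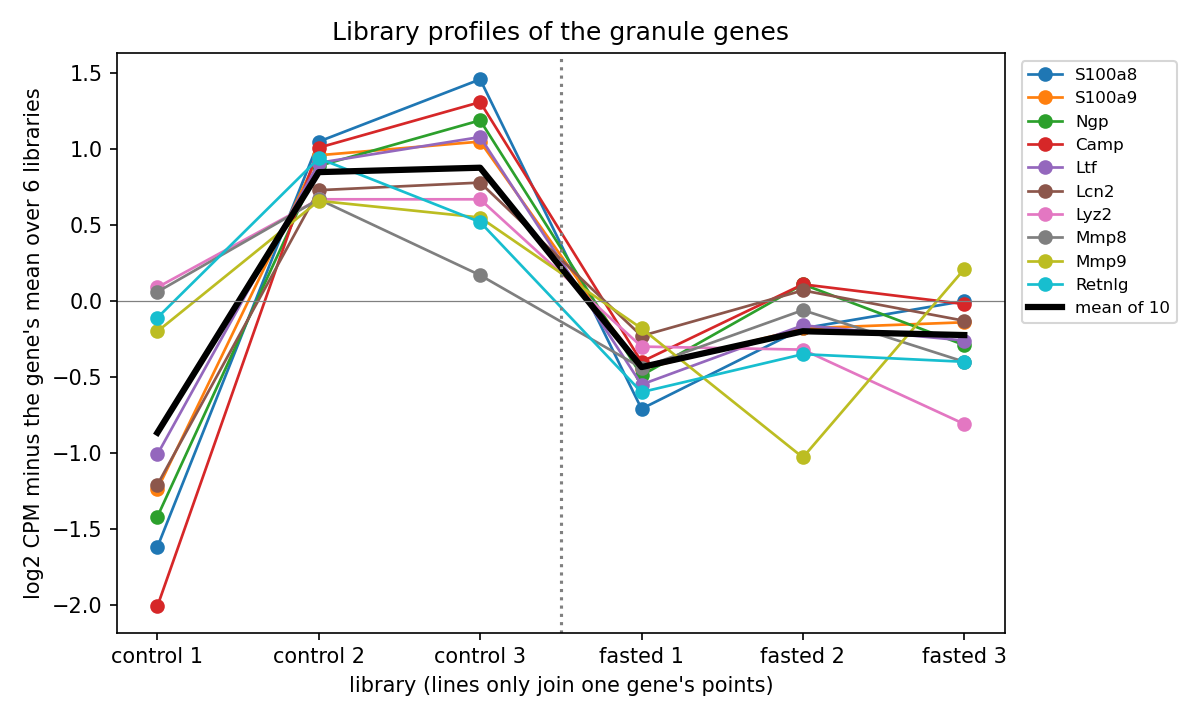
Log2 CPM of each granule gene minus its mean over the 6 libraries (y axis), by library, with the mean of the 10 genes in black. The mean is -0.87 in control library 1, 0.85 and 0.88 in control libraries 2 and 3 and -0.44 to -0.20 in the fasted libraries, and Lyz2, Mmp8, Mmp9 and Retnlg stay near 0 in control library 1.

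Of 32 other genes of mature neutrophils 29 were tested. Of these, 2 fell, Csf3r and Padi4, beside 3.82% of all tested genes and 12.9% of well-expressed genes called lower. The median log2 fold change over the 29 was -0.76, beside 0.32 over all tested genes and -0.50 over well-expressed genes. Csf3r, the receptor of granulocyte colony-stimulating factor, which early progenitors carry too, had -1.45 (SE 0.27, edgeR adjusted p 0.0189), and Padi4, the gene of a histone-citrullinating enzyme, -1.12 (SE 0.30, edgeR adjusted p 0.0423). The chitinase-like gene Chil3 had the members' course in control libraries, with 22.95, 117 and 152 CPM, but reached 58.4, 94.1 and 128 CPM in fasted libraries (log2 fold change -0.06, SE 0.75, edgeR adjusted p 0.967). Anxa1 and Hp, the genes of annexin A1 and haptoglobin, had -1.41 and -1.98 (edgeR adjusted p 0.0688 and 0.0615). The surface markers of mature neutrophils Ly6g and Cxcr2 were at 3.81 and 3.94 times the background as means over the 6 libraries, and 18 of the 32 genes reached 5 times it. Some genes of this list took another course than the members. Control library 1 was highest for Cxcr2, at 14.2, 12.8 and 5.48 CPM in control, against 3.79, 3.295 and 7.12 CPM after fasting. It was also highest for Padi4, at 38.2, 14.8 and 27.4 CPM in control, against 13.8, 12.7 and 10.7 CPM after fasting. The list summed to 546, 928.5 and 1373 CPM in control, against 478, 519 and 417 CPM after fasting.

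The primary granule and early granulocyte genes were far more abundant than the members in control libraries and not so in fasted library 3. These 13 genes took 0.356%, 1.04% and 1.59% of the counts in control, against 0.378%, 0.217% and 0.0976% after fasting. Of the 13, 4 fell (Serpinb1a, Cst7, Ctsc and Hdc), beside 3.82% of all tested genes and 12.9% of well-expressed genes called lower. The median over the 13 genes was -1.83, beside -0.50 over well-expressed genes. Serpinb1a, an inhibitor of granulocyte proteases, had -1.73 (SE 0.27, edgeR adjusted p 0.00854) and Cst7, the gene of the protease inhibitor cystatin F, -1.76 (SE 0.32, edgeR adjusted p 0.0237). Ctsc, whose product activates granule serine proteases, had -1.18 (SE 0.24, edgeR adjusted p 0.0270) and Hdc, the histamine-forming enzyme, -0.95 (SE 0.23, edgeR adjusted p 0.0339). The myeloperoxidase gene Mpo, the elastase gene Elane and the cathepsin G gene Ctsg had larger estimates that did not pass, -2.47, -3.72 and -2.49, with edgeR adjusted p of 0.120, 0.157 and 0.128. None of the 12 genes of this list in the restricted fit passed, and 9 had an unadjusted p under 0.05.

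The count ratio of the members to these 13 genes was 0.133, 0.174 and 0.145 in the control libraries, in order, against 0.263, 0.504 and 1.26 in the fasted libraries. The mean log2 ratio was -2.74 ± 0.197 in control and -0.863 ± 1.13 in fasted libraries (SD, n = 3 each), a difference of 1.88, or 3.67-fold. The log2 difference was 1.28 without fasted library 3 and 2.41 without fasted library 1. Control library 1 was near the other control libraries in this summed ratio, although the members' share of its counts was the lowest of the 6. This rested on Lyz2. With Lyz2 left out of the members, the log2 ratio was -3.71, -2.83 and -3.04 in control, against -2.35, -1.3 and 0.09 after fasting. Elane counts per S100a8 count were 2.43, 3.37 and 3.29 in control, against 1.37, 0.333 and 0.142 after fasting. Mpo counts per S100a8 count were 35.4, 13 and 13.6 in control, with control library 1 apart, against 12, 5.52 and 1.44 after fasting. Taken gene by gene against the summed primary granule counts, all 10 members were higher in every fasted than in every control library, as were 43.9% of well-expressed genes. The median difference was 1.95 for the members and 2.06 for those genes, so its size did not set the members apart from well-expressed genes. The share without overlap was larger for the members, which was not tested.

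**Figure D5:**
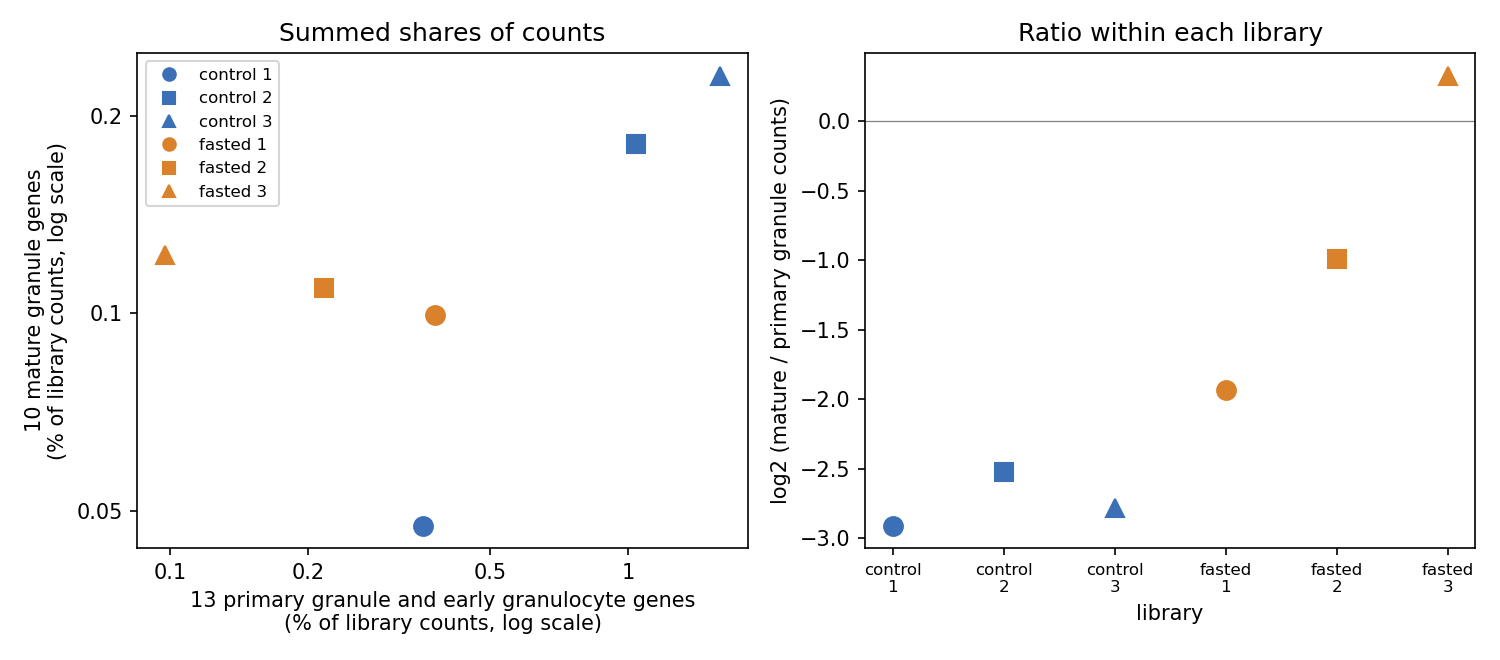
Left, summed share of library counts (percent, log axes) of the 13 primary granule and early granulocyte genes (x axis) and the 10 mature granule genes (y axis), 1 point per library; right, the log2 ratio of mature to primary granule counts by library. The ratio lies between -2.91 and -2.52 in control libraries and at -1.93, -0.99 and 0.33 in fasted libraries 1, 2 and 3.

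Among the granulocyte transcription factors, 5 of 6 were tested and Cebpe and Cebpa fell, beside 3.82% of all tested genes and 12.9% of well-expressed genes called lower. Cebpe, the C/EBP factor needed for secondary granule genes, was at 6.49, 24.4 and 33.1 CPM in control, against 4.95, 2.14 and 2.51 CPM after fasting (log2 fold change -2.75, SE 0.57, edgeR adjusted p 0.0408). Its control values had the order of those of S100a8, while control library 1 stood above every fasted library. Cebpa, a C/EBP factor of early granulocyte commitment, had -1.26 (SE 0.35, edgeR adjusted p 0.0465). Spi1, the gene of PU.1, and Cebpd had -0.88 and -0.56 (edgeR adjusted p 0.113 and 0.672).

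Relatives of the members by sequence or kind were examined next. Lyz1, the close paralogue of Lyz2, had 15 to 44 counts per library, 2.13 times the background, against 2754 to 9003 for Lyz2. Of 19 relatives, 3 fell, S100a1, S100a13 and Trf, beside 3.82% of all tested genes and 12.9% of well-expressed genes called lower. The median over the 19 was 0.20, but only 8 of them were well-expressed genes. Tested genes below 5 times the background had a median of 0.53 under this scaling. In the restricted fit the median of the 8 was -0.17. S100a1 and S100a13 are calcium-binding S100 genes and had -0.96 (SE 0.27) and -0.98 (SE 0.26), and Trf, the transferrin gene related to Ltf, -0.99 (SE 0.27), with edgeR adjusted p of 0.0457, 0.0414 and 0.0423. S100a11, S100a10 and Cst3 did not pass, at -0.85, -0.28 and -0.43 (edgeR adjusted p 0.0600, 0.476 and 0.330). Among 8 genes of receptors and inhibitors of the granule proteins, all below 5 times the background, 7 were tested and none passed by edgeR. Of these 7, 2 had an unadjusted p under 0.05, and Timp2, Lrp1 and Lrp2 had 0.30, 0.36 and 0.74 (edgeR adjusted p 0.485, 0.358 and 0.0656).

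Markers of other cells varied between the libraries in which the members varied, and their part in the members' values was not tested. Of 20 monocyte and macrophage genes, 3 fell (Cx3cr1, Ms4a6c and Ccr2), beside 3.82% of all tested genes and 12.9% of well-expressed genes called lower. Cx3cr1 was at 3.53 times the background, below the cut for well-expressed genes. The summed level of the 20 was 650 to 1179 CPM in control and 280.3 to 651 CPM in fasted libraries. Of 8 eosinophil, basophil and mast cell genes, 3 fell (Mcpt8, Ms4a2 and Cpa3), beside the same shares called lower. Their sums were 608, 469 and 418 CPM in control libraries 1, 2 and 3 and 176.5 to 278 CPM in fasted libraries. The sum was thus highest in control library 1, and Prg2 went the other way. Prg2, the eosinophil major basic protein gene, had 12 counts in control library 1 against 1869 and 1783 in control libraries 2 and 3 and 411 to 694 after fasting. Of 21 erythroid genes, 1 fell (Nfe2), beside the same shares called lower. The erythroid sums were 10600, 9208 and 4849 CPM in control libraries 1, 2 and 3 and 5140 to 7301 CPM in fasted libraries. The carbonic anhydrase genes Car2 and Car1 weighed most in this sum, with means of 2944 and 1768 CPM over the 6 libraries. The globin gene Hba-a2 of this list went the other way and was lowest in control library 1, at -0.77 in centred log2 CPM. Control library 1 was highest in this erythroid sum and lowest in the members' sum, at 629 CPM. Its sum of primary granule and early granulocyte genes, 4726 CPM, was above the 760.5 to 3111 CPM of the fasted libraries. As a share of all counts, fasted library 3 was highest in erythroid genes (0.937%), ahead of control library 1 (0.799%). Of the megakaryocyte and platelet genes, Fli1, Pf4 and Treml1 were among those that fell, and the list had sums of 639 to 1082 and 285 to 481 CPM. None of 12 B and T lymphocyte genes passed by edgeR and 3 had an unadjusted p under 0.05, with sums of 99.2 to 160 CPM in control and 96.5 to 216 CPM in fasted libraries. No gene of these lists was at 0 in all 6 libraries, and 19 of 21 erythroid and 8 of 13 megakaryocyte and platelet genes reached 5 times the background. Across all the lists named above, 0 genes passed by edgeR in the restricted fit.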

How the data were processed

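A single table of raw gene counts was deposited, which also lists exonic lengths. Per the submitters' processing notes, HISAT2 2.2.1, featureCounts 2.0.1 and GRCm38 were used. The annotation release, strand handling and treatment of reads with several matches are not given in the sources used here. Columns were matched to libraries through the labels, and the treatment label gave the groups. Symbols came from GENCODE M21, which held 55227 of the 55487 identifiers, and all 54435 with the same version had the deposited length. RNA was extracted with TRIzol and selected with oligo(dT) per the labels, whose extraction text describes ground tissue.

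Genes were filtered with filterByExpr, scaled by TMM and tested with edgeR 4.0.16 (quasi-likelihood, robust, group only) in R 4.3.3. A gene was called at a Benjamini-Hochberg adjusted p under 0.05 over the 36508 genes tested. CPM per kb divides CPM by exonic length. Background was the summed count of 1466 odorant and vomeronasal receptor genes per summed exonic length. The test was tried on simulated counts. Members and gene lists were chosen with earlier results of these data known, the lists from general knowledge. Genes named from other lists were the 3 with the highest level per length and up to 6 called genes, and for lists of other cell types only the called ones and Prg2. Genes were also named from the 8 nearest the members' mean profile. Some results that the naming rule covers are not reported here. Ly6g, Cxcr2 and Lyz1 were singled out after their values were seen. Alternatives were DESeq2 1.42.0, limma-voom (limma 3.58.1), other scalings, filters, a background subtraction, a replicate block and leaving out each library. Ahsp of the erythroid list was not used here.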

Additional observations from a re-analysis of the deposited data

How the results depend on the processing

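The count of genes called over all tested genes, 1813 (420 higher and 1393 lower), was 5883 with DESeq2, 2973 with RLE factors, 4587 with library totals alone (4296 higher and 291 lower), 5244 with TMM factors from well-expressed genes (4988 higher and 256 lower), 2849 without the filter, 2747 with a mean of at least 1 CPM, 558 without robust settings and 5723 at an adjusted p under 0.1. It was 0 by edgeR in the restricted fit (2111 at an unadjusted p under 0.05) and 0 after background subtraction (1716). Leaving out 1 library gave 7 (without fasted library 3) to 5379 (without control library 3). The count of members called, 2, was 6 with DESeq2 and 1 with limma-voom. It was 0 by edgeR with library totals alone (1 member at an unadjusted p under 0.05), with TMM factors from well-expressed genes (1), in the restricted fit (0), after background subtraction (0) and without robust settings (6). Leaving out 1 library gave 0 to 8 members, 8 of them without control library 1.

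The labels number the libraries 1 to 3 in both groups without saying that a number was shared. Deviations from the group means correlated across genes at -0.149, 0.126 and -0.250 for numbers 1, 2 and 3, and not every library correlated best with its own number. With the replicate block, 146 genes and 0 members were called by edgeR, and 4 members had an unadjusted p under 0.05. Lcn2 changed sign with TMM factors from well-expressed genes and in the restricted fit, to 0.0053 and 0.0055. The members' median, their summed CPM and their ratio to primary granule genes kept their direction in each alternative that changed 1 choice at a time. Each moved by less than the spread between libraries, which is a weak check for the median and the sum. That SD was 0.832 for the median and 0.775 for the log2 sum, near the size of the values themselves. The median ran from -1.23 without control library 1 to -0.32 after background subtraction, and the log2 ratio of summed CPM from -1.30 to -0.40. The alternatives included 3 ways of forming the ratio to primary granule genes chosen after seeing the data, without Mpo, without Lyz2 or from mean log2 counts (1.81, 2.01 and 1.32). With 2 choices changed together, the restricted fit without control library 3, the members' median was 0.0070 and the log2 ratio of their summed CPM -0.031, against -0.80 and -0.89.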
